A study of Mus musculus with 4 samples.

Results

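The Kruppel-like factor (KLF) genes *Klf2*, *Klf4*, *Klf6*, *Klf3* and *Klf13* were examined in single-cell transcriptomes of intestinal YFP+CD4+ T cells. The cells were purified by flow cytometry from small intestines of mice aged 7 to 8 months. The members were taken by gene symbol, and all 5 were found among the 13265 genes measured in 5080 cells. All mice carried the Il-17a-CRE allele, which switches on recombination in cells that express *Il17a*, and a floxed-stop YFP reporter, so that YFP identifies cells with present or past *Il17a* expression. TGFβR-KO mice also carried floxed alleles of *Tgfbr2*, TGFβR-CA mice carried a constitutively active form of *Tgfbr1* behind a floxed stop cassette, and the TGFβR-WT littermates carried neither. Cells came from pools of mice that received no treatment: 2975 cells were labelled TGFβR-KO, 1098 TGFβR-CA and 1007 TGFβR-WT.

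KLF proteins bind GC-rich and CACCC sequences through zinc fingers at their C-terminal end. In T cells, KLF2 is known to maintain quiescence and to switch on *S1pr1*, whose product carries lymphocytes out of tissues, and it is lost upon antigen receptor stimulation. KLF4 restrains proliferation, KLF6 is an immediate early gene induced by injury and stress, KLF3 is a repressor whose own gene is switched on by other KLF proteins, and KLF13 was described as a regulator of late *Ccl5* transcription in T cells.

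The deposited values are logarithms of corrected unique molecular identifier (UMI) counts, from which whole corrected UMIs were recovered. The level of a gene is its number of corrected UMIs per 10000 corrected UMIs of all genes, summed over the cells of a group. Brackets give exact 95% intervals, Poisson for levels and ratios and Clopper-Pearson for shares of cells, and cover counting error only. Since TGFβR-KO and TGFβR-CA had 1 sample each, no test between mice was possible. The TGFβR-WT cells carried 2 name suffixes and were kept apart as the larger set, with 709 cells, and the smaller set, with 298. Neither set was tied to a sample, and a gene was called higher or lower where it differed by at least 1.5-fold in the same direction from both sets.

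Several properties of the sets bear on every comparison. *Cd3e* was detected in 95.2% to 98.7% and *Cd4* in 70.5% to 81.9% of the cells of a set. At least 1 of 7 epithelial markers was detected in 4.64% of TGFβR-KO and 10.1% of TGFβR-CA cells. In the larger and smaller TGFβR-WT sets the shares were 4.80% and 10.1%. *Krt18* alone was detected in 1.55% of TGFβR-KO and 6.83% of TGFβR-CA cells, and in 3.24% and 7.38% of these sets. *Fabp2* went the other way, at 1.38% in TGFβR-KO, 0.364% in TGFβR-CA, and 0.564% and 0% in these sets. *Tgfbr2* was at 1.48 per 10000 in cells labelled TGFβR-KO and between 1.72 and 1.78 elsewhere, and a 3′ read does not show whether the floxed part was removed. *Tgfbr1* was at 0.792 in cells labelled TGFβR-CA, at 0.367 in the larger TGFβR-WT set and at 2.79 in the smaller set, so the smaller set stood above the cells labelled as carrying the active receptor. Levels over all cells are therefore given for each set, while shares of cells and several ratios within clusters are given for pooled TGFβR-WT cells, and TGFβR-CA stands below for cells so labelled. The 4 B cell markers in the table had a summed level of 0.658 in TGFβR-KO, 2.35 and 1.08 in the larger and smaller TGFβR-WT sets and 1.74 in TGFβR-CA, with *Cd79a* and *Ms4a1* at 0 in TGFβR-CA and in the smaller set, and their part in the results was not tested. TGFβR-KO shared its batch with a TGFβR-WT sample and TGFβR-CA with the other. Each condition thus had TGFβR-WT cells of its own batch, but which suffix belongs to which batch is not given, so a same-batch comparison could not be picked out and a call asks for the difference from both sets.

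*Klf2*, on the plus strand of chromosome 8 from 72319033 to 72321656 of mm10, was the member with the largest difference between conditions. Over all cells TGFβR-KO had a level of 6.50 (6.36 to 6.65), the larger TGFβR-WT set 1.84 (1.68 to 2.02), the smaller set 1.10 (0.925 to 1.31) and TGFβR-CA 0.865 (0.780 to 0.956). TGFβR-KO lay above both TGFβR-WT sets and TGFβR-CA below both, and the intervals of TGFβR-KO overlapped none of the others. The TGFβR-KO level was 3.53 times that of the larger and 5.89 times that of the smaller set. At least 1 UMI was found in 48.0% (46.2 to 49.8) of TGFβR-KO cells against 17.9% (15.6 to 20.4) of TGFβR-WT and 11.7% (9.90 to 13.8) of TGFβR-CA cells. Median corrected UMIs per cell were 3794, 3659 and 3918, and after thinning every cell to 2955 UMIs the shares were 45.0%, 16.3% and 10.1%.

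*Klf4*, which lies on the minus strand of chromosome 4 from 55527143 to 55532466, was scarce. Its level was 0.413 (0.377 to 0.452) in TGFβR-KO, 0.255 (0.197 to 0.326) in the larger TGFβR-WT set, 0.115 (0.0631 to 0.194) in the smaller set and 0.107 (0.0788 to 0.143) in TGFβR-CA. TGFβR-KO was the highest of the 4 sets, by 1.62-fold over the larger and 3.58-fold over the smaller TGFβR-WT set, whereas TGFβR-CA and the smaller set overlapped. It was detected in 8.47% of TGFβR-KO cells, 5.06% of TGFβR-WT and 3.01% of TGFβR-CA cells.

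Thus *Klf2* and *Klf4*, 2 of the 5 members, were called higher in TGFβR-KO, where 2.94% of the 7490 genes with at least 200 corrected UMIs were called higher and 5.43% lower. No member was called lower. Neither was any member called in TGFβR-CA, where 1.23% of genes were called higher and 2.75% lower.

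*Klf6*, on the plus strand of chromosome 13 from 5861482 to 5870394, did not separate the conditions over all cells. Its level was 4.63 (4.51 to 4.76) in TGFβR-KO, 2.21 (2.03 to 2.40) in the larger TGFβR-WT set, 6.53 in the smaller set, with 6.08 as its lower bound, and 2.54 (2.40 to 2.70) in TGFβR-CA. The TGFβR-KO level lay between the TGFβR-WT sets, which differed from each other by 2.95-fold, more than for any other member. These sets also differed in the share of their cells that the authors assigned to the pre-tumorigenic cluster, which was 3.81% for the larger and 17.4% for the smaller one.

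*Klf3* (chromosome 5, 64803388 to 64832901, plus strand) was at 1.38 (1.31 to 1.45) in TGFβR-KO, 1.16 (1.03 to 1.30) in the larger and 0.874 (0.715 to 1.06) in the smaller TGFβR-WT set, and 0.785 (0.704 to 0.872) in TGFβR-CA. The order of the sets was that of *Klf2*, but the TGFβR-KO level was only 1.19 and 1.58 times those of the TGFβR-WT sets, and *Klf3* was not called. *Klf13* (chromosome 7, 63886351 to 63938915, minus strand) was the most even member, at 2.04 in TGFβR-KO, 2.02 and 2.70 in the larger and smaller TGFβR-WT sets and 1.91 in TGFβR-CA. The gene bodies of *Klf3* and *Klf13* each overlap 2 other annotated genes, among them *E030018B13Rik* on the strand opposite to *Klf13*, whereas those of *Klf2*, *Klf4* and *Klf6* overlap none.

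**Figure D1:**
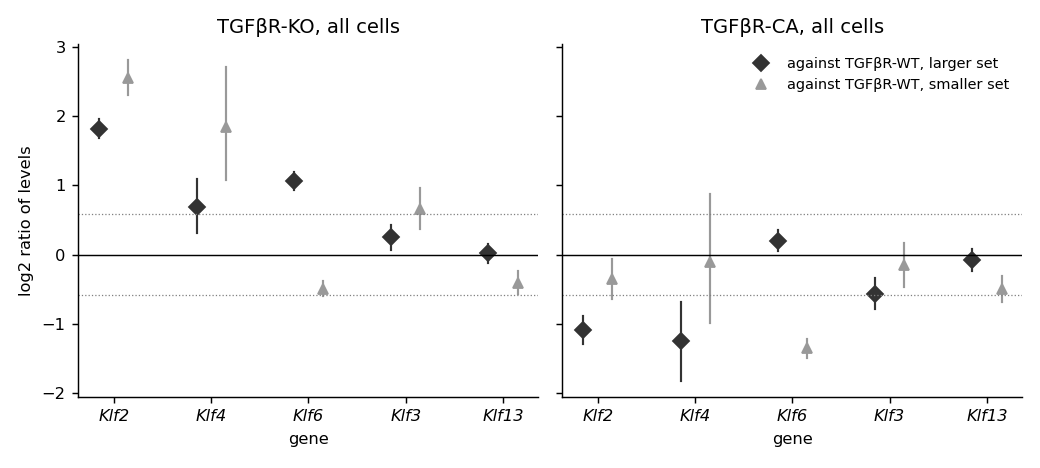
Log2 ratio of the level over all cells in TGFβR-KO (left) and TGFβR-CA (right) to each TGFβR-WT set, with exact 95% counting intervals as bars and dotted lines at a 1.5-fold difference. *Klf2* and *Klf4* in TGFβR-KO lie above the upper dotted line against both sets, while the values of *Klf6* lie on opposite sides of 0.

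The authors assigned the cells to 8 clusters. These were made from the expression values, so levels by cluster are a description. *Klf2* and *S1pr1* are among the genes by which the paper characterized the migratory cluster, so high levels of them there are not an independent result. In TGFβR-KO, *Klf2* was highest in the tumorigenic cluster, at 13.5 per 10000, and in the migratory cluster, at 10.5. It was at 8.09 in the pre-tumorigenic cluster, 6.17 in cytotoxic T lymphocytes (CTL) and 3.47 in cycling cells. The 3 lowest levels were those of tissue-resident follicular helper cells (TR-TFH), at 1.75, activated cells, at 1.32, and germinal center follicular helper cells (GC-TFH), at 0.503. By share of cells the order was different, since 82.2% (79.4 to 84.7) of migratory cells but 59.0% (53.7 to 64.1) of tumorigenic cells had a *Klf2* UMI. The intervals of these shares overlapped among the pre-tumorigenic, CTL and cycling clusters and between TR-TFH and activated cells. The tumorigenic interval also overlapped those of the pre-tumorigenic (45.9 to 59.2) and cycling (45.4 to 68.4) clusters, but not that of CTL.

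In TGFβR-WT cells, *Klf2* was likewise highest in the migratory cluster, at 9.11, and lowest in GC-TFH, at 0.201. In TGFβR-CA it was highest in the migratory cluster, at 7.69, and lowest in activated cells, at 0.0751, with GC-TFH at 0.140. The migratory cluster held 27.9% of TGFβR-KO cells, 8.84% of TGFβR-WT and 4.74% of TGFβR-CA cells, and contributed 46.0%, 51.7% and 43.5% of all *Klf2* UMIs, respectively. The tumorigenic cluster contributed another 25.6% in TGFβR-KO, where it held 361 cells, but could not be compared, with 5 TGFβR-WT cells and 2 TGFβR-CA cells.

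**Figure D2:**
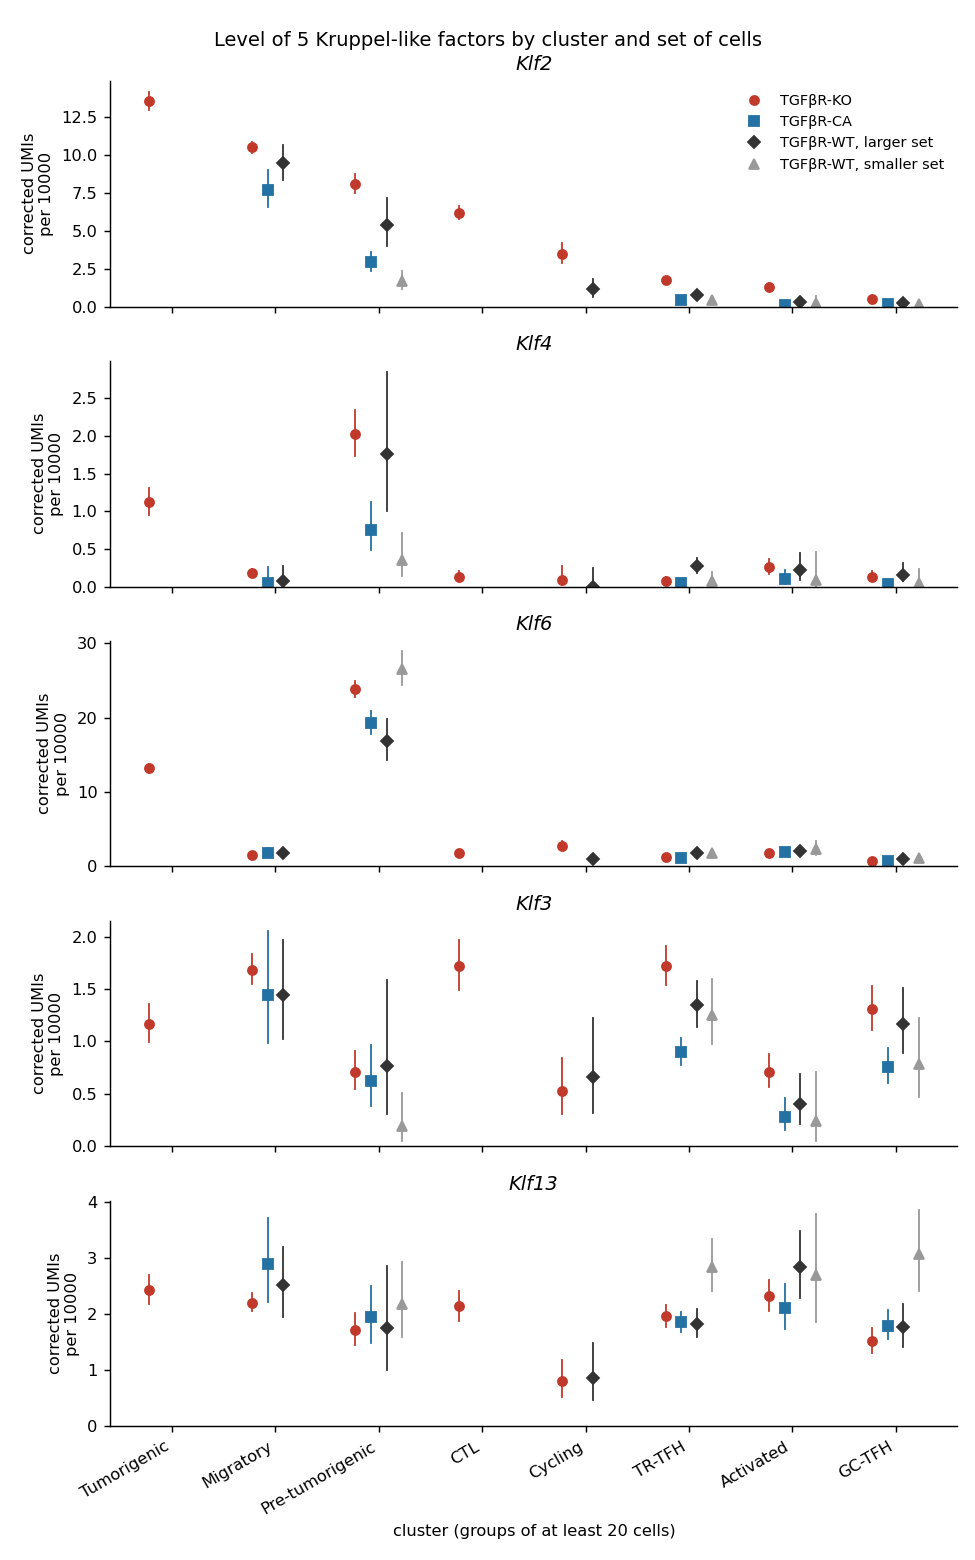
Level of each member in corrected UMIs per 10000 by authors' cluster, for groups of at least 20 cells. Colors and symbols mark the 4 sets and bars are exact 95% Poisson intervals. *Klf2* is high in the tumorigenic, migratory and pre-tumorigenic clusters, *Klf6* and *Klf4* in the pre-tumorigenic and tumorigenic clusters, and *Klf13* varies little.

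Levels were next compared within clusters, which separates the level in a kind of cell from the number of such cells. In TR-TFH cells *Klf2* was at 1.75 in TGFβR-KO, 0.757 in the larger TGFβR-WT set, 0.411 in the smaller set and 0.407 in TGFβR-CA. That of TGFβR-KO was the highest, 2.71 (2.17 to 3.40) times that of pooled TGFβR-WT cells, and TGFβR-CA and the smaller set were close. The share of TR-TFH cells with a *Klf2* UMI was 23.7% for TGFβR-KO against 12.4% for TGFβR-WT and 8.99% for TGFβR-CA.

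*Klf2* was also called higher in TGFβR-KO in the other clusters in which each set had at least 20 cells. It was 2.51 (1.41 to 4.74) times the pooled TGFβR-WT level in GC-TFH, 4.50 (2.56 to 8.63) times in activated cells and 2.85 (2.27 to 3.63) times in the pre-tumorigenic cluster. In the pre-tumorigenic cluster the levels were 8.09 in TGFβR-KO, 5.38 in the larger TGFβR-WT set, 1.68 in the smaller set and 2.92 in TGFβR-CA, and the ratio to the larger set only just reached the limit for a call. In TGFβR-KO 1 cell held 94 of the 704 *Klf2* UMIs of this cluster. Without that cell the level was 7.03 and the ratio to the larger set 1.31, so the call in this cluster rests on that cell, whereas *Klf2* was called higher without the top cell in TR-TFH, GC-TFH and activated cells and over all cells. Genes called higher made up 1.42% of those assessed in TR-TFH, 1.74% in GC-TFH, 2.06% in activated and 2.47% in pre-tumorigenic cells. The GC-TFH and activated values rest on 15 and 13 UMIs in TGFβR-WT, and against the larger set alone they were 2.31 and 4.23.

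In contrast, in migratory cells, where *Klf2* was abundant in all conditions, TGFβR-KO was 1.15 (1.02 to 1.30) and TGFβR-CA 0.844 (0.694 to 1.02) times TGFβR-WT. When the clusters were weighted as in TGFβR-WT, the *Klf2* level was 2.94 in TGFβR-KO and 1.25 in TGFβR-CA against 1.60 in TGFβR-WT. The 4.06-fold ratio of TGFβR-KO to TGFβR-WT over all cells was then 1.83-fold.

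Of the other members, *Klf3* was called higher in TGFβR-KO in activated cells, at 0.711 against 0.404 and 0.244 in the TGFβR-WT sets and 0.282 in TGFβR-CA. The smaller set there rests on 3 UMIs. In TR-TFH cells *Klf3* was at 1.72 in TGFβR-KO, 1.35 and 1.25 in the TGFβR-WT sets and 0.897 in TGFβR-CA, and the values of the sets again stood in the order TGFβR-KO, TGFβR-WT, TGFβR-CA. Neither ratio to TGFβR-WT, 1.30 (1.10 to 1.56) in TGFβR-KO and 0.682 (0.559 to 0.831) in TGFβR-CA, was a call.

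*Klf6* showed no higher level in TGFβR-KO within TR-TFH, GC-TFH or activated cells. In TR-TFH cells it was at 1.33 in TGFβR-KO, 1.83 in each TGFβR-WT set and 1.11 in TGFβR-CA, so both modified conditions lay below TGFβR-WT. TGFβR-CA was 0.608 (0.512 to 0.722) times TGFβR-WT and was called lower, as were 4.49% of the genes assessed in that cluster. In the pre-tumorigenic cluster *Klf6* was at 23.8 in TGFβR-KO, 16.9 and 26.6 in the larger and smaller TGFβR-WT sets and 19.2 in TGFβR-CA, and TGFβR-KO again lay between the TGFβR-WT sets. *Klf6* was higher in TGFβR-KO than in TGFβR-WT in cycling cells, by 1.98-fold (1.25 to 3.25), although only 4 cycling cells belonged to the smaller set.

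Within TR-TFH cells *Klf4* was at 0.0778 in TGFβR-KO, 0.267 and 0.0748 in the larger and smaller TGFβR-WT sets and 0.0412 in TGFβR-CA, so that only the larger TGFβR-WT set stood apart. Each of these rests on at most 30 UMIs. *Klf13* was between 0.692 and 1.19 times pooled TGFβR-WT cells over the comparisons in which each side had at least 20 cells. Against the smaller set alone it was lower in GC-TFH, at 0.493 (0.375 to 0.655) times in TGFβR-KO and 0.585 (0.445 to 0.776) times in TGFβR-CA, but not against the larger set, at 0.857 and 1.02 times.

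**Figure D3:**
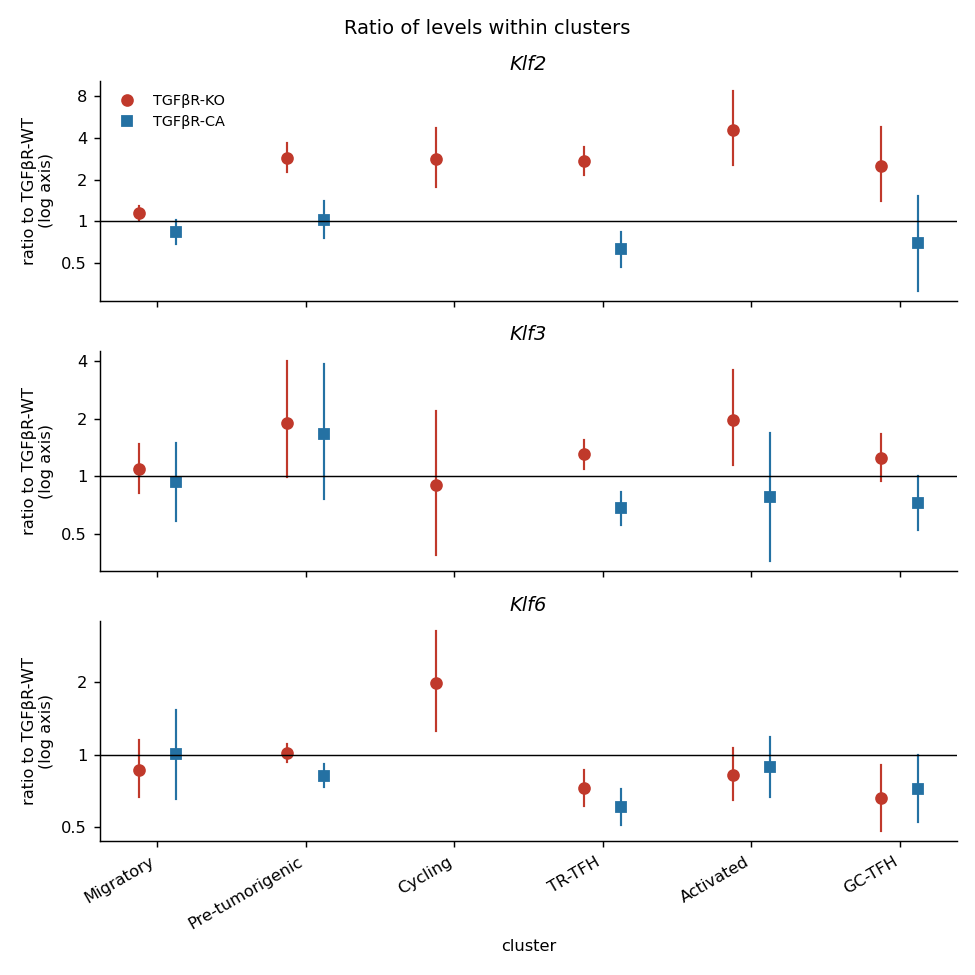
Ratio of the level in TGFβR-KO (circles) and TGFβR-CA (squares) to pooled TGFβR-WT cells within clusters, on a log axis, with exact 95% counting intervals. *Klf2* lies above 1 in TGFβR-KO in all 6 clusters, least in the migratory cluster at 1.15, while most *Klf6* values lie at or below 1.

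*Klf6* and *Klf4* were concentrated in the same clusters. In TGFβR-KO, *Klf6* was at 23.8 in the pre-tumorigenic and 13.2 in the tumorigenic cluster, and between 0.698 and 2.79 in the other 6. *Klf4* was at 2.02 and 1.12 in those clusters and at 0.0778 to 0.253 elsewhere. The pre-tumorigenic cluster, with 7.73% of TGFβR-KO cells, supplied 39.0% of the *Klf6* and 37.1% of the *Klf4* UMIs. *Klf4* was not called there, at 1.76 and 0.347 in the larger and smaller TGFβR-WT sets and 0.752 in TGFβR-CA. With clusters weighted as in TGFβR-WT, the *Klf4* ratio of TGFβR-KO to TGFβR-WT was 1.32, against 1.97 over all cells. Without the pre-tumorigenic and tumorigenic clusters, the log2 ratio of TGFβR-KO to TGFβR-WT over the remaining cells was −0.085 for *Klf4*, against 0.98 over all cells, so that the higher level of *Klf4* was found only with those clusters included. In the pre-tumorigenic cluster a *Klf6* UMI was found in 90.9% (86.4 to 94.3) of TGFβR-KO, 87.3% (78.0 to 93.8) of TGFβR-WT and 89.2% of TGFβR-CA cells. The intervals of TGFβR-KO and TGFβR-WT overlapped.

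*Klf3* and *Klf13* had no such concentration. In TGFβR-KO the highest *Klf3* levels were those of CTL and TR-TFH, both at 1.72, and migratory cells, at 1.68, and the lowest was that of cycling cells, at 0.527. *Klf3* was at 0.712 in the pre-tumorigenic cluster, where *Klf6* was highest. *Klf13* ranged from 0.805 in cycling to 2.42 in tumorigenic cells.

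Counts per cell were skewed for *Klf2*. Among TGFβR-KO cells of the tumorigenic cluster, 41.0% had no *Klf2* UMI and 17.2% (62 cells) had 10 or more, up to 76, and the top 10% of cells held 58.8% of the UMIs. Migratory cells were more even, with a median of 4 UMIs, 8.54% at 10 or more, and 27.5% of the UMIs in the top 10%. For *Klf6*, 34.8% of pre-tumorigenic and 15.8% of tumorigenic TGFβR-KO cells had 10 or more UMIs, and none did in migratory, CTL, TR-TFH, GC-TFH or activated cells. In the pre-tumorigenic cluster of TGFβR-KO the top 10% of cells held 59.1% of the *Klf2* UMIs, so that its level there rests on a minority of cells.

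**Figure D4:**
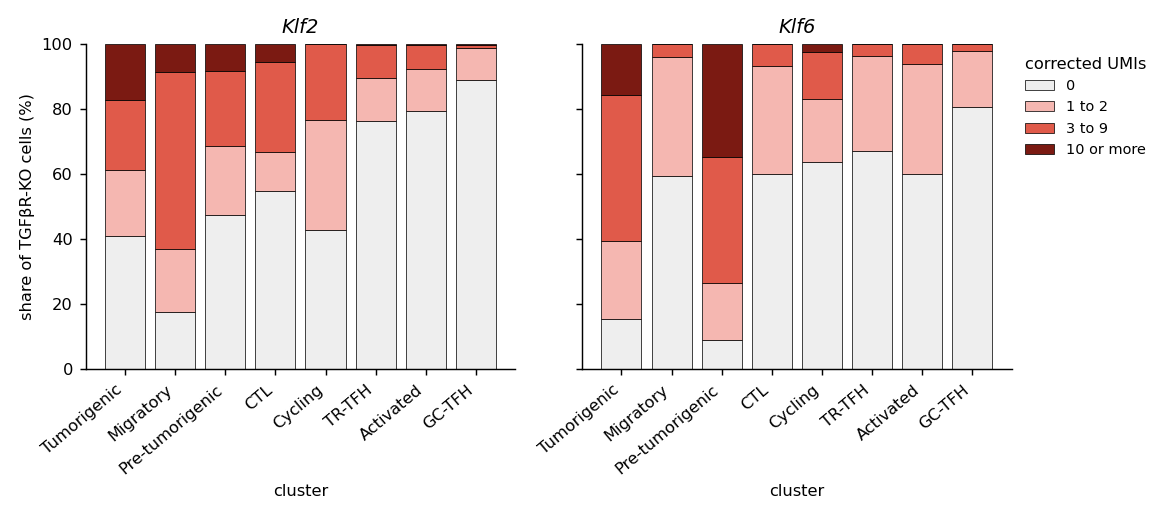
Share of TGFβR-KO cells in each cluster with 0, 1 to 2, 3 to 9 or 10 and more corrected UMIs of *Klf2* (left) and *Klf6* (right), in percent. Cells with 10 or more make up 17.2% of the tumorigenic cluster for *Klf2* and 34.8% of the pre-tumorigenic cluster for *Klf6*.

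Members were also examined together in single cells. In the tumorigenic cluster of TGFβR-KO, 93.4% (89.2 to 96.4) of the 213 cells with a *Klf2* UMI also had *Klf6*, against 71.6% (63.6 to 78.7) of the 148 cells without. Both were found in 55.1% of cells, where the product of the separate shares is 49.8%. In the migratory cluster no such difference appeared, since *Klf6* was found in 40.4% of cells with and 41.9% of cells without *Klf2*. *Klf3* was found in 56.6% (48.1 to 64.8) of CTL with *Klf2* and 21.6% (15.8 to 28.4) of those without, whereas in GC-TFH it was found in 28.6% and 31.1%.

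The genes *Tbx21*, which encodes the Th1 master regulator T-bet, and *Ifng*, its target, were named because KLF6 was studied here as a regulator of *Tbx21*. *Tbx21* was at 0.287 in TGFβR-KO, 0.0519 and 0.0577 in the TGFβR-WT sets and 0.0411 in TGFβR-CA. *Ifng* was at 4.26 in TGFβR-KO, 0.571 and 0.709 in the TGFβR-WT sets and 0.313 in TGFβR-CA. Among tumorigenic TGFβR-KO cells, *Tbx21* was detected in 21.3% (16.9 to 26.3) of those with *Klf6* and 10.7% (4.03 to 21.9) of those without, intervals that overlap. For *Klf2* the corresponding shares were 26.3% (20.5 to 32.7) and 10.1% (5.78 to 16.2), with intervals that do not overlap. Cells without *Klf6* made up only 15.5% of this cluster, against 41.0% without *Klf2*, so that the former share rests on fewer cells. The overlap therefore does not set *Klf6* apart from *Klf2*, and all these cells share a library. In migratory cells *Tbx21* was found in 5.33% with and 5.48% without *Klf6*, and in 4.83% with and 8.11% without *Klf2*.

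The genes linked to KLF2 in T cell trafficking were examined for the same cells. *S1pr1*, the sphingosine-1-phosphate receptor used for exit from tissues and a known KLF2 target, was detected in 61.3% (57.6 to 65.0) of migratory TGFβR-KO cells with a *Klf2* UMI and 18.9% (13.0 to 26.2) of those without. In TR-TFH cells the shares were 43.1% (34.2 to 52.3) and 10.4% (7.53 to 13.8), and in CTL 33.8% (26.2 to 42.1) and 7.39% (3.99 to 12.3). TGFβR-WT migratory cells had *S1pr1* in 81.4% (69.1 to 90.3) with and 23.3% (9.93 to 42.3) without *Klf2*, and TGFβR-CA migratory cells in 68.4% (51.3 to 82.5) with and 14.3% (1.78 to 42.8) without. In migratory cells of all 3 conditions, *S1pr1* was thus detected more often beside *Klf2* than without it, with intervals that did not overlap. Both genes are among those by which the paper characterized this cluster.

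Between conditions *S1pr1* was not called. Over all cells its level was 1.16 in TGFβR-KO, 1.01 in the larger and 0.412 in the smaller TGFβR-WT set, and 0.470 in TGFβR-CA. With the TGFβR-WT cells pooled, at 0.812, the order of the conditions was that of *Klf2*, and this order was also found in GC-TFH, TR-TFH and activated cells. In TR-TFH cells TGFβR-KO, at 0.773, lay between the larger set, at 0.846, and the smaller set, at 0.374. Within migratory cells, where *Klf2* differed least, TGFβR-KO was at 2.62, TGFβR-CA at 2.84 and the larger TGFβR-WT set at 4.36. Of the 9 trafficking genes with enough UMIs, 2 were called higher in TGFβR-KO and 1 lower, with a median log2 ratio to TGFβR-WT of 0.37 against −0.17 over all genes. Over all genes tested, 2.94% were called higher and 5.43% lower. *S1pr4*, another sphingosine-1-phosphate receptor, was at 1.14 in TGFβR-KO against 0.638 and 0.602, and the chemokine receptor *Cxcr3* was at 1.30 against 0.347 and 0.453. *Ccr7*, the receptor for entry into lymph nodes, was called lower over all cells, at 0.110 against 0.247 and 0.256. Its level was not lower in TR-TFH cells, at 0.410 against 0.383 and 0.411. That cluster held 79 of the 126 *Ccr7* UMIs in TGFβR-KO. Among GC-TFH cells *Ccr7* was at 0.0731 against 0.158 and 0.166. The part of cluster shares in the *Ccr7* call was not tested. In TGFβR-CA, where 1.23% of all genes tested were called higher and 2.75% lower, none of the 9 trafficking genes was called. Their median log2 ratio to TGFβR-WT was −0.55 in TGFβR-CA, against −0.11 over all genes.

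The quiescence genes were examined as well. In TGFβR-KO 2.94% of all genes tested were called higher and 5.43% lower. Of the 16 quiescence genes tested, none was called higher there and 3 were called lower. These were *Foxp1*, a regulator of naive T cell quiescence, at 0.545 against 1.02 and 0.841, *Tsc1*, a brake on mTOR, at 0.166 against 0.339 and 0.280, and *Tcf7*, which encodes TCF-1, at 0.909 against 1.73 and 1.52. The median log2 ratio of the 16 was −0.32, against −0.17 over all genes. These values are over all cells. TR-TFH and GC-TFH made up 17.4% and 10.7% of TGFβR-KO cells but 45.7% and 19.8% of TGFβR-WT cells. The part of this difference in the calls was not tested. In TGFβR-CA, where 2.75% of all genes tested were called lower, 1 of 16, the antiproliferative gene *Tob1*, was, at 0.110 against 0.219 and 0.280. Among 15 upstream and partner genes of KLF factors, *Smurf2*, which encodes a ubiquitin ligase of the TGFβ pathway, was called lower in TGFβR-KO, at 0.246 against 0.590 and 0.651, and none was called in TGFβR-CA.

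Over all genes tested, 2.94% were called higher in TGFβR-KO and 2.75% lower in TGFβR-CA. Of the 15 Th1 genes tested, 9 were called higher in TGFβR-KO and none lower, while 4 were called lower in TGFβR-CA. These are levels over all cells. Of the 4887 *Ifng* UMIs of TGFβR-KO, 3043 lay in the tumorigenic cluster, which held 5 TGFβR-WT cells. Besides *Tbx21*, *Ifng* and *Cxcr3*, the TGFβR-KO calls included the transcription factor gene *Bhlhe40*, at 3.06 against 0.638 and 0.874, the interleukin-18 receptor gene *Il18rap*, at 0.955 against 0.231 and 0.124, and *Ccl5*, at 19.6 against 1.01 and 1.13. In TGFβR-CA *Ccl5* was at 0.0913.

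The wider family was examined for the same calls. Besides the 5 members, 13 KLF and SP genes had a row in the table, and *Klf5*, which marks gut epithelium, was listed at 0 in all cells. Of the 7 with at least 200 corrected UMIs, none was called in TGFβR-KO, and *Klf7* was called lower in TGFβR-CA, at 0.356 against 0.551 and 0.536. With 7 genes, these counts do not set the family apart from the shares called over all genes given above. *Sp1* and *Sp3*, ubiquitous activators of GC-rich promoters, were at 0.807 and 1.27 in TGFβR-KO against 0.909 and 1.61 in TGFβR-WT. *Klf10* and *Klf11*, known TGFβ-inducible family genes, had too few UMIs for a call: *Klf10* was at 0.0958 in TGFβR-KO and 0.116 in TGFβR-WT, and *Klf11* had a level of 0.0671 (77 UMIs) in TGFβR-KO against 0.0134 (5 UMIs) for TGFβR-WT and 0.00913 (4 UMIs) for TGFβR-CA. *Klf9* was at 0.199 in TGFβR-KO and 0.210 in TGFβR-WT, *Klf16* at 0.136 and 0.153, *Sp2* at 0.325 and 0.320, and *Sp4* at 0.574 and 0.729. *Klf8*, *Klf12* and *Sp6* had at most 20 UMIs in any condition.

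Over the 23 groups of at least 20 cells formed by cluster and set, the genes whose pattern most resembled that of each member were ranked by the correlation of log2 levels. The groups share libraries, so these correlations are descriptions. For *Klf6* the leading genes were *Junb* (r = 0.95), *Dusp1* (r = 0.95) and *Hspa1b* (r = 0.94), and for *Klf4* they included *Ppp1r15a* (r = 0.93) and *Junb* (r = 0.91). *Klf4* and *Klf6* themselves correlated at 0.85. For *Klf2* the leading genes were *Adgre5*, which encodes the adhesion receptor CD97 (r = 0.82), *Rap1gap2*, a regulator of Rap1 (r = 0.82), and *4930523C07Rik* (r = 0.79), and its correlation with *Klf6* was 0.50.

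For *Klf3* the leading genes were *Nsa2* (r = 0.84), *Rpl10* (r = 0.83) and *Rpl23* (r = 0.83), and 7 of its 10 closest genes encode ribosomal proteins. For *Klf13* they were *Cmtm6* (r = 0.88), *Spn*, which encodes CD43 (r = 0.87), and *Svil* (r = 0.86). Of the 10 closest genes, *Klf4* and *Klf6* shared 6, including *Junb*, *Dusp1* and *Fos*, and no other pair of members shared any.

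*Junb*, *Dusp1* and *Hspa1b* belong to a list of 30 immediate early and heat shock genes that tissue dissociation is known to induce, and this list held all 10 of the genes closest to *Klf6*, 7 of the 10 closest to *Klf4* and none of those closest to *Klf2*. The summed level of the 30 genes in the pre-tumorigenic cluster was 573 in TGFβR-KO, 343 and 382 in the larger and smaller TGFβR-WT sets and 339 in TGFβR-CA, and it was 297 in the tumorigenic cluster of TGFβR-KO. In the remaining groups it lay between 69.7 and 123. Across TGFβR-KO cells, the rank correlation of this sum with the member's UMIs was 0.457 for *Klf6*, 0.263 for *Klf4* and −0.0165 for *Klf2*, over 2975 cells that share a library. Within the tumorigenic cluster of TGFβR-KO these correlations were 0.444, 0.152 and 0.336, and within the pre-tumorigenic cluster 0.461, 0.192 and 0.133, so that *Klf2* was positively correlated with the sum in both. Over all cells the sum was 141 in TGFβR-KO, 91.7 and 150 in the TGFβR-WT sets and 102 in TGFβR-CA. In TGFβR-KO, where 2.94% of all genes tested were called higher, 8 of the 28 listed genes tested were. Among these were the heat shock gene *Hspa1a*, at 8.61 against 1.94 and 3.71, and *Nr4a1*, an early gene of antigen receptor stimulation, at 2.09 against 0.459 and 0.412. In TR-TFH cells the sum was 71.6 in TGFβR-KO and 76.1 and 85.4 in the TGFβR-WT sets. The part of dissociation in the levels of the members was not tested.

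**Figure D5:**
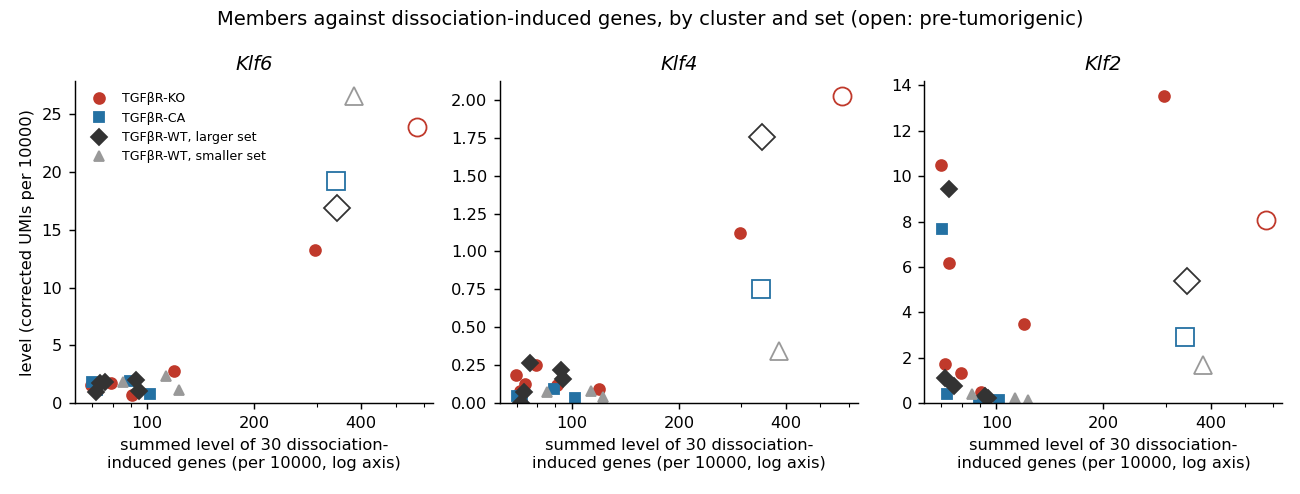
Level of *Klf6*, *Klf4* and *Klf2* against the summed level of 30 dissociation-induced genes (log axis), both in corrected UMIs per 10000, for each cluster and set of at least 20 cells. Open symbols are the pre-tumorigenic cluster. *Klf6* and *Klf4* are high in the groups with the largest sums, from 297 to 573, while *Klf2* is also high in migratory cells, where the sum is between 69.7 and 78.9.

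The stretches before the starts of *Klf2*, *Klf4* and *Klf6* are shown because *Klf4* and *Klf6* had similar patterns and *Klf2* did not. They were read from RefSeq promoter sequences (GRCm38.p6), and end before the annotated first exon of either RefSeq or GENCODE. In the 250 bases before each RefSeq start, both strands were searched for the KLF and SP motifs GGGCGG and CACCC, the AP-1 motif TGANTCA, the FOXO motif GTAAACA and the MEF2 consensus. Capitals mark GGGCGG (or its reverse complement) in all 3 sequences and the MEF2 consensus in *Klf2*.
Klf2 (chr8:72318812-72319032, plus strand): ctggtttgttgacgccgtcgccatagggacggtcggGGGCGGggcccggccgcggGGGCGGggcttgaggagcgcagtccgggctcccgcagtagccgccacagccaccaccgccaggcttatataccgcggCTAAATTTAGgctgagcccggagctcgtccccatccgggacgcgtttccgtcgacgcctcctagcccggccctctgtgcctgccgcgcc
Klf4 (chr4:55532476-55532725, minus strand): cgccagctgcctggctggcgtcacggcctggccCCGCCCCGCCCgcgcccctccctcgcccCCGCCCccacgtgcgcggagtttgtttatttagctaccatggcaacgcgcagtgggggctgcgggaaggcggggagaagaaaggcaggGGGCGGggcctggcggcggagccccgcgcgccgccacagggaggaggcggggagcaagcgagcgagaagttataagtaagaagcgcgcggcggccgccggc
Klf6 (chr13:5861239-5861481, plus strand): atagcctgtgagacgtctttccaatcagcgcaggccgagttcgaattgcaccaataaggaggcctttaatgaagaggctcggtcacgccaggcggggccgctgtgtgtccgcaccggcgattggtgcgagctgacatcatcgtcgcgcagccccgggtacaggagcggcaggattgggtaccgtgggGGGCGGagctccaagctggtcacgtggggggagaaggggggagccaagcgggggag

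GGGCGG was found at 2 places for *Klf2*, 4 for *Klf4*, 1 for *Klf6*, 6 for *Klf3* and 3 for *Klf13*, and in 32.7% of 32851 promoters. CACCC was found at 5 places for *Klf3* and 1 place each for *Klf2* and *Klf13*, and in 52.0% of promoters, and the *Klf2* match lies nearer to the start than the printed stretch. The MEF2 consensus was found for *Klf2* alone among the members, and in 2.92% of promoters. TGANTCA, present in 6.75% of promoters, and GTAAACA, in 3.17%, were found for none of the members, so that these letters do not set *Klf4* and *Klf6* apart from *Klf2* in this window.

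Markers of other cells were compared for *Klf4*, which epithelial and myeloid cells also express. The 7 epithelial markers were detected in 5.65% (3.44 to 8.69) of the 336 cells with a *Klf4* UMI and 6.20% (5.53 to 6.92) of the 4744 cells without, and the 4 myeloid markers in the table in 168 of the former (44.5% to 55.5%) and 2337 of the latter (47.8% to 50.7%). Their summed levels per 10000 were 0.170 and 0.204 for the epithelial and 1.89 and 1.93 for the myeloid list. Most of the myeloid sum came from *Cst3*, which was detected in 46.4% to 52.3% of the cells of each set. The epithelial gene *Cdh1* was at 0 in every set, and *Lyz2* was at 0 in TGFβR-CA and in the smaller TGFβR-WT set.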

How the data were processed

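Sorted YFP+CD4+ T cells were profiled by single-cell RNA sequencing (10x Genomics, 3′), each sample being a pool of mice. Per the submitters' processing notes, reads were processed with Cell Ranger 3.1.0 against mm10 and analyzed with Seurat. The authors filtered cells, corrected UMI counts by regularized regression, integrated the batches for clustering and removed γδ T and epithelial cells. The deposited values are natural log values, ln(1 + corrected UMI), for 5080 cells and 13265 genes, and each cell carries a condition and a cluster name given by the authors. Undoing the logarithm gave whole numbers within 1e-06 for every value. They are corrected and not raw counts, so no count model or p-value was used.

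Corrected UMIs ranged from 2955 to 5110 per cell. The WT1 and WT2 samples could not be tied to the suffix sets, and 32 cells carried barcodes present in more than 1 set. Scrublet (scanpy 1.11.5) marked 1.02% of cells as doublets, but only 0.134% of TGFβR-KO cells, where it is therefore not informative. Within clusters, calls required 20 cells in each set and 10 UMIs in the condition and in pooled TGFβR-WT cells, and ratios required 20 cells and 10 UMIs on each side. Where the divided side of a ratio had fewer than 3 UMIs, 3 were used for the call. Patterns were correlated on log2(level + 0.1). Calls were tested on simulated data. Python 3.11.15, numpy 2.4.6, scipy 1.17.1 and pandas 2.3.3 were used. Named genes were the members, the KLF and SP family, *Tbx21* and *Ifng*, the 3 genes most like each member, of which 1 is not reported here, and the list genes called. *S1pr1*, *Cst3* and the markers named lie outside this rule and were chosen with their values known. The members and lists were chosen with earlier results of these data known. Alternatives were other summaries, each TGFβR-WT set alone, other filters and folds, and sets of cells left out. Gene positions are from GENCODE M21 (GRCm38), promoters from RefSeq (GRCm38.p6).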

Additional observations from a re-analysis of the deposited data

Results flagged for a closer look

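For 3 members, TGFβR-KO lay on one side of both TGFβR-WT sets and TGFβR-CA on the other. Over all cells the TGFβR-KO level was 7.52 times that of TGFβR-CA for *Klf2*, 3.85 times for *Klf4* and 1.76 times for *Klf3*. Within TR-TFH cells it was 4.29 times for *Klf2* and 1.91 times for *Klf3*, and within GC-TFH cells 1.73 times for *Klf3*. With 1 sample in each of these conditions, the difference was not tested. TGFβR-KO and TGFβR-CA were in different batches, each with a TGFβR-WT sample, so these direct ratios span batches, while the position on one side of both TGFβR-WT sets includes cells of the same batch. For *Klf2* in TR-TFH cells and *Klf4* over all cells, TGFβR-CA was close to the smaller TGFβR-WT set, at 0.990 and 0.929 times its level. The same held for *Klf3*, at 0.898 (0.721 to 1.13) times over all cells and 0.961 (0.578 to 1.68) times in GC-TFH. In GC-TFH the *Klf3* level of TGFβR-KO was 1.12 (0.826 to 1.53) times that of the larger set, so neither condition was set apart there.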

How the results depend on the processing

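Of 319 values recomputed under alternatives, 286 moved by less than the spread between the TGFβR-WT sets, 32 moved by more and 1 reversed. For log2 ratios this spread was the standard deviation pooled over the members, 0.682, which is more than the 1.5-fold limit of a call. A call can therefore change for a value counted as not moved. *Klf2* in pre-tumorigenic TGFβR-KO cells lost its call in this way without its top cell. The mean over cells, the limit of 5% mitochondrial UMIs, leaving out shared barcodes and leaving out the cell of the condition with most UMIs of the member, the last chosen after seeing the data, moved none by more than that spread. Leaving out doublets did not either, but with 4 TGFβR-KO cells marked this shows nothing for TGFβR-KO. The reversed value was the log2 ratio of *Klf4* in TGFβR-KO to TGFβR-WT over all cells, which was −0.085 without the pre-tumorigenic and tumorigenic clusters, an alternative chosen after seeing the data. The same alternative gave −1.71 for *Klf4* in TGFβR-CA. Weighting clusters as in TGFβR-WT gave 0.88 for *Klf2* in TGFβR-KO. Against the smaller TGFβR-WT set alone, *Klf4* was at 1.84 in TGFβR-KO and −0.11 in TGFβR-CA. *Klf6* in TGFβR-KO was at 1.07 against the larger and −0.49 against the smaller set, and in TGFβR-CA at 0.20 and −1.36. In pre-tumorigenic TGFβR-KO cells, *Klf2* was at 0.59 against the larger set, 2.26 against the smaller set and 0.79 by share of cells, and *Klf4* at 0.20 against the larger set. In activated cells *Klf2* was at 1.26 by share of cells. The cause was not tested.

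Counts of genes called depended on the fold and the filter. With a ratio of at least 2, with 50 corrected UMIs as the minimum, and with no filter, respectively, 106, 378 and 383 genes were called higher and 120, 745 and 904 lower in TGFβR-KO, and 24, 276 and 340 higher and 44, 411 and 494 lower in TGFβR-CA. Of the 10 genes most like each member, Spearman correlation shared 6 for *Klf2*, 4 for *Klf4*, 4 for *Klf6* and 3 for *Klf13*. Groups of at least 50 cells shared 5 for *Klf2* and 4 for *Klf13*, and a pseudocount of 0.5 shared 6 for *Klf4*. No paired analysis was possible because no result comes from a test, and cells were not tied to the numbered TGFβR-WT samples. With 1 sample for TGFβR-KO and TGFβR-CA, no replicate could be left out there.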

Other observations

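In the CTL cluster of TGFβR-KO, which holds cytotoxic cells, *Klf2* was split between cells: 54.8% had no UMI and 27.7% had 3 to 9. The rank correlation of *Klf3* with *Klf2* was 0.415 there, over 321 cells that share a library, and between −0.0218 and 0.209 in the other TGFβR-KO clusters. *Tbx21* was detected in 29.0% (21.7 to 37.1) of CTL with *Klf2* against 15.3% (10.4 to 21.5) of those without, intervals that did not overlap. *Ifng* was detected in 50.3% and 44.9% of them, intervals that did overlap.

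*S1pr4*, a receptor of the same family as *S1pr1*, was also detected more often in cells with *Klf2*. In activated TGFβR-KO cells it was found in 49.2% (36.6 to 61.9) of the 65 cells with *Klf2* and 19.4% (14.7 to 24.8) of the 253 without. In pre-tumorigenic TGFβR-KO cells the shares were 19.8% and 17.4%, with overlapping intervals.

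In the pre-tumorigenic cluster, 29.1% of TGFβR-WT and 31.3% of TGFβR-CA cells had 10 or more *Klf6* UMIs, and in TGFβR-KO 34.8% did. Cells rich in *Klf6* were thus found in this cluster in all 3 conditions.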
